A study of Mus musculus with 32 samples.

Results

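Type 1 conventional dendritic cells (cDC1s) of mouse epididymal fat were taken from a single-cell RNA sequencing data set of the stromal vascular fraction, the cells of fat tissue other than adipocytes. The members were chosen by their own measured UMI counts, so the genes of the rule are described and not tested. A cell barcode was a member when it had at least 300 genes and at most 10% mitochondrial unique molecular identifiers (UMIs, counted RNA molecules) and met 5 criteria. These were at least 3 of Xcr1, Clec9a, Wdfy4, Cadm1, Itgae and Tlr3 detected, at least 10 UMIs of H2-Ab1, under 5 UMIs of C1qa, C1qb and C1qc together, no UMI of Cd3e, Cd3d or Cd3g, and under 3 of Ccr7, Fscn1, Ccl22, Cacnb3 and Il4i1 detected. Of 22703 barcodes deposited, 19564 passed the filters on genes and mitochondrial UMIs, and 755 of those were members.

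The study compared C57BL/6 wild type (WT) and CD169-DTR mice, which carry the diphtheria toxin receptor at CD169, on a normal diet (ND) or a high fat diet (HFD) for 16 weeks. All mice, WT included, then received diphtheria toxin for 7 days, which was meant to remove tissue resident macrophages. Leukocytes (CD45-positive) and the CD45-negative remainder came from separate sort gates that kept out most F4/80-high cells and Ly6C-high monocytes, and were pooled 1 to 1 for 10x Genomics 3′ v3 libraries aimed at 7000 cells with an estimated multiplet rate of 5.4%. Each of the 4 groups was 1 library, and the sources used here state neither how many mice it held nor their age. The groups were HFD labelled DTR with 139 members, HFD labelled WT with 223, ND labelled DTR with 98 and ND labelled WT with 295. With 1 library a group there is no replicate check. All differences below are between these libraries. The 95% intervals beside them (Clopper-Pearson for shares, Poisson for levels) cover counting error only, without the variation between mice. Intervals of levels and their ratios count each UMI as independent. They therefore also leave out variation between cells and are too narrow for genes concentrated in few cells.

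cDC1s are the dendritic cells specialised in taking up material from dead cells and presenting it on MHC class I to CD8 T cells, a process called cross-presentation. They develop under the transcription factors Irf8 and Batf3 and the growth factor receptor Flt3. Xcr1 is the receptor for the chemokine Xcl1 of NK and T cells, Clec9a binds the exposed actin of dying cells, and Tlr3 senses double-stranded RNA. In adipose tissue they are a resident population beside type 2 conventional dendritic cells and macrophages.

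The members carried further cDC1 genes that the rule had not used. Irf8 was at 761 CPM in HFD labelled DTR, 789 CPM in HFD labelled WT, 942 CPM in ND labelled DTR and 1009.9 CPM in ND labelled WT, given as CPM, a gene's UMIs scaled to 1000000 UMIs of the members of a library. Naaa, a lysosomal amidase high in mouse cDC1s, was at 575 CPM in HFD labelled DTR, 588 CPM in HFD labelled WT, 724 CPM in ND labelled DTR and 661 CPM in ND labelled WT. Batf3 was at 114 CPM in HFD labelled DTR, 92.7 CPM in HFD labelled WT, 102 CPM in ND labelled DTR and 70.5 CPM in ND labelled WT, and Flt3 at 65.8 CPM in HFD labelled DTR, 82.5 CPM in HFD labelled WT, 84.9 CPM in ND labelled DTR and 67.9 CPM in ND labelled WT. All 4 genes were detected in every library. Of the genes in the rule, given only as a description, Xcr1 was found in 78.4% of members in HFD labelled DTR, 73.5% in HFD labelled WT, 75.5% in ND labelled DTR and 74.9% in ND labelled WT. Cadm1, an adhesion molecule, was found in fewer members of the libraries labelled DTR, at 66.2% in HFD labelled DTR, 84.8% in HFD labelled WT, 68.4% in ND labelled DTR and 86.8% in ND labelled WT, with levels of 154 CPM in HFD labelled DTR, 208 CPM in HFD labelled WT, 144 CPM in ND labelled DTR and 218 CPM in ND labelled WT. Tlr3 was found in 30.9% in HFD labelled DTR, 45.7% in HFD labelled WT, 41.8% in ND labelled DTR and 40.7% in ND labelled WT, at 51.6 to 54.2 CPM. Itgae, which encodes the integrin CD103, had the widest range among the 6 markers. It was found in 51.1% of members in HFD labelled DTR but in 10.3% in HFD labelled WT, 41.8% in ND labelled DTR and 38.0% in ND labelled WT. Itgae was at 110.2 CPM in HFD labelled DTR, 12.3 CPM in HFD labelled WT, 79.4 CPM in ND labelled DTR and 60.5 CPM in ND labelled WT.

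Membership was a matter of degree at the edge of the marker count. The 199 members with 3 of the 6 markers had 97.7 CPM of Xcr1, 506 CPM of Naaa and 746 CPM of Irf8. The 198 barcodes with 2 markers that met every other criterion had 24.2 CPM of Xcr1, 332 CPM of Naaa and 431 CPM of Irf8, beside 242 CPM of Cd209a, a lectin of type 2 dendritic cells. The other edges held few cells: 4 members had 10 to 12 UMIs of H2-Ab1 and 3 barcodes just outside had 7 to 9, while 5 members had 3 or 4 UMIs of C1q genes and 2 outside had 5 or 6. No member barcode was shared by the members of different libraries, and 5 member barcodes also occurred in another library.

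Sequencing depth differed between the members of the libraries. Median UMIs per member were 6785 in HFD labelled DTR, 11560 in HFD labelled WT, 9912 in ND labelled DTR and 10715 in ND labelled WT, and the members' summed UMIs were 1125093 in HFD labelled DTR, 2838003 in HFD labelled WT, 1107716 in ND labelled DTR and 3373667 in ND labelled WT. Siglec1, the gene of CD169 whose cells the toxin is meant to remove, went against the labels. Over all barcodes past the filters it had 195 UMIs (3.05 CPM) in HFD labelled DTR and 51 UMIs (1.09 CPM) in HFD labelled WT, and 113 UMIs (3.45 CPM) in ND labelled DTR and 5 UMIs (0.136 CPM) in ND labelled WT. The libraries are therefore called by their labels throughout. Among the members Siglec1 was near absent, with 0 UMIs in HFD labelled DTR, 2 in HFD labelled WT, 7 in ND labelled DTR and 0 in ND labelled WT.

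Some members also held transcripts of another lineage, and more of them in the libraries labelled DTR. A second lineage was counted where a member had at least 3 different markers and 10 UMIs of 1 other cell type list, leaving out markers found in 25% or more of members, a definition made after seeing the data. By this count 18 members (13%) in HFD labelled DTR and 13 (5.83%) in HFD labelled WT had one, and 17 (17.3%) in ND labelled DTR and 20 (6.78%) in ND labelled WT. Fibroblast markers led in HFD labelled DTR, with 10 members against 4 in HFD labelled WT. Macrophage or monocyte markers led in ND labelled DTR, with 11 members against 2 in ND labelled WT. The 6 fibroblast markers (Col1a1, Col1a2, Col3a1, Dcn, Pdgfra, Lum) summed to 5361 CPM in HFD labelled DTR, 908 CPM in HFD labelled WT, 1543 CPM in ND labelled DTR and 402 CPM in ND labelled WT. With the 68 second-lineage members left out they summed to 384 CPM in HFD labelled DTR, 128 CPM in HFD labelled WT, 88.8 CPM in ND labelled DTR and 44.8 CPM in ND labelled WT. The remaining 687 cells are called single-lineage members here. They numbered 121 in HFD labelled DTR, 210 in HFD labelled WT, 81 in ND labelled DTR and 275 in ND labelled WT.

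**Figure D1:**
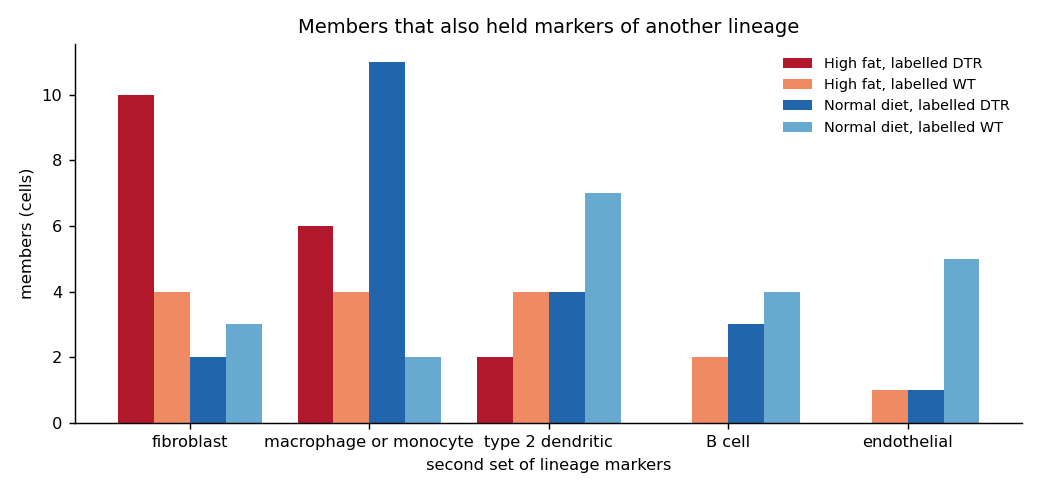
Number of members (cells, vertical axis) that also held markers of the other cell type named on the horizontal axis, by library. The tallest bars are 11 members with macrophage or monocyte markers in ND labelled DTR and 10 with fibroblast markers in HFD labelled DTR.

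A few cells filled most of the lists of genes that differed when all members were summed. The genes named in each comparison were the 10 highest and 10 lowest by the interval bound nearest 0, among genes with at least 50 UMIs over both libraries. In HFD labelled DTR against HFD labelled WT, all 10 of the named higher genes had over 50% of their UMIs in 5 cells. They were Tagln, Postn, Fstl1, Timp1, Angptl4, Rsad2, Fbn1, Col1a1, Phlda3 and Loxl1, and most of them are known genes of fibroblasts. The lower side began with the immunoglobulin genes Igkc, Jchain and Ighm, with 7 of the 10 concentrated in that way. In ND labelled DTR against ND labelled WT, 9 of the 10 higher genes were concentrated, among them Fcgr1, C5ar1 and Ms4a4c of monocytes and macrophages. Among single-lineage members the numbers were 2 of 10 higher and 3 of 10 lower genes on HFD, and 1 of 10 higher and 4 of 10 lower on ND. Results below are therefore given for all members, for single-lineage members or for both. Second-lineage cells are included in every value given for all members and can raise or lower it. Irf8 in ND labelled DTR, for example, was at 942 CPM over all members and 1075 CPM among single-lineage members.

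**Figure D2:**
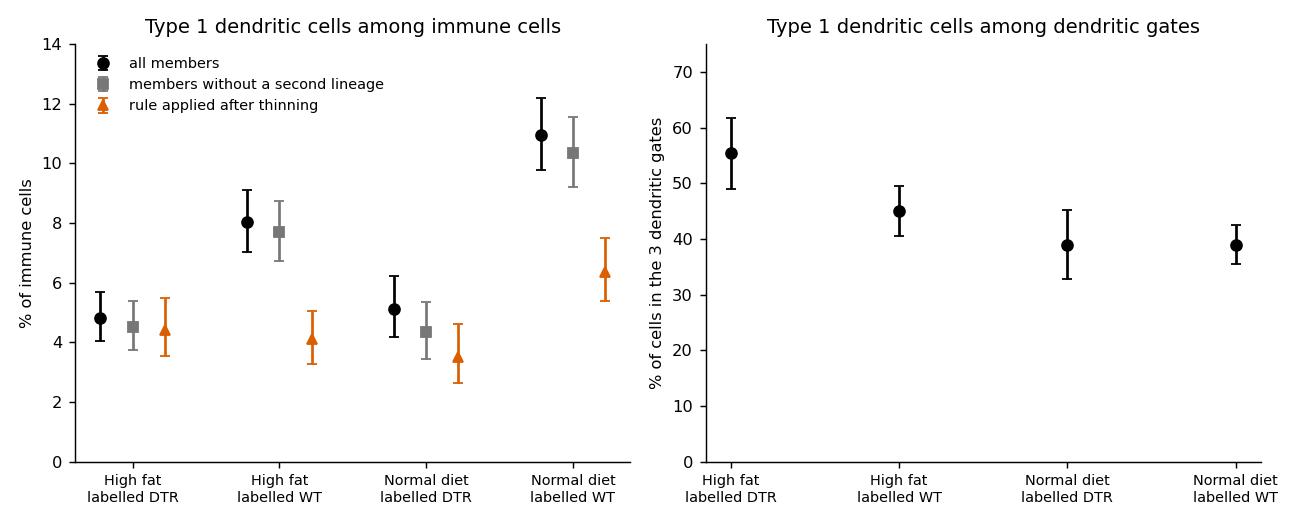
Left, members as % of immune cells in each library, for all members (circles), single-lineage members (squares) and the rule applied after thinning every cell to 3000 UMIs (triangles). Right, members as % of the cells in the 3 dendritic gates; bars are 95% Clopper-Pearson intervals. For all members, the 2 libraries labelled WT stand highest on the left, at 8.02% and 10.9% of all immune cells. After thinning, HFD labelled DTR (4.43%) lies above HFD labelled WT (4.10%). HFD labelled DTR stands highest on the right at 55.4%.

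cDC1s made up less of the immune cells in either library labelled DTR. Immune cells were barcodes with more UMIs of leukocyte genes than of stromal and endothelial genes, and they numbered 2680 in HFD labelled DTR, 2731 in HFD labelled WT, 1870 in ND labelled DTR and 2658 in ND labelled WT. Members made up 4.81% (4.03 to 5.69) in HFD labelled DTR and 8.02% (7.03 to 9.10) in HFD labelled WT, a log2 ratio of -0.74 (-1.06 to -0.42). On ND they made up 5.13% (4.18 to 6.23) in ND labelled DTR and 10.9% (9.79 to 12.2) in ND labelled WT, a log2 ratio of -1.09 (-1.44 to -0.76). Single-lineage members made up 4.51% in HFD labelled DTR, 7.69% in HFD labelled WT, 4.33% in ND labelled DTR and 10.3% in ND labelled WT, with log2 ratios of labelled DTR to labelled WT of -0.77 on HFD and -1.26 on ND. HFD labelled WT had a smaller share than ND labelled WT (-0.45, -0.71 to -0.19), whereas the log2 ratio of HFD labelled DTR to ND labelled DTR was -0.09 (-0.49 to 0.30).

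The difference on HFD depended on depth and on the denominator, and the difference on ND depended on the denominator. The members had fewer UMIs in HFD labelled DTR than in HFD labelled WT, and more of them held Itgae. With the rule applied to immune cells thinned to 3000 UMIs, the shares were 4.43% (81 of 1829 cells) in HFD labelled DTR and 4.10% (83 of 2024) in HFD labelled WT, and 3.52% (50 of 1420) in ND labelled DTR and 6.37% (137 of 2150) in ND labelled WT. The HFD ratio turned to 0.11 in this way, and the ND ratio kept its sign. Without Itgae among the markers, the thinned shares were 3.66% in HFD labelled DTR and 3.85% in HFD labelled WT, and 2.89% in ND labelled DTR and 5.40% in ND labelled WT. As a share of the type 1, type 2 and migratory dendritic gates together, members made up 55.4% (139 of 251) in HFD labelled DTR and 45.1% (223 of 495) in HFD labelled WT, and 38.9% (98 of 252) in ND labelled DTR and 38.9% (295 of 758) in ND labelled WT. With this denominator the log2 ratios of labelled DTR to labelled WT were 0.30 on HFD and -0.0011 on ND. The ratio of HFD labelled WT to ND labelled WT turned to 0.21. The sort and its gates set the mix of immune cells, so these shares do not give numbers of cells in the tissue.

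Genes of the interferon response were higher in cDC1s of the libraries labelled DTR on both diets. Of 6020 genes with enough UMIs on HFD, 7.81% were at least 2-fold higher in HFD labelled DTR and 1.56% at least 2-fold lower. On ND, 5.39% of 6015 genes were at least 2-fold higher in ND labelled DTR and 1.93% lower. As counts, 470 genes were higher and 94 lower on HFD, or 365 and 155 with TMM scaling, and 324 higher and 116 lower on ND, or 246 and 163. Of the 65 genes of the interferon list in the files, 35 had enough UMIs on HFD, and 22 were at least 2-fold higher and 1 lower, with a median log2 ratio of 1.26 beside 0.16 over all genes. On ND 28 of 41 were higher and 0 lower, with a median of 1.80 beside 0.15. Among single-lineage members, where 2.42% of genes were at least 2-fold higher and 2.33% lower on HFD, 13 of 28 interferon genes were higher and 3 lower, with a median of 0.96. On ND, where 2.53% of genes were higher and 2.38% lower, 18 of 32 were higher and 1 lower, with a median of 1.13. The same list gave 20 of 37 genes higher on HFD and 34 of 51 on ND in the type 2 dendritic gate, where 7.29% and 5.78% of all genes tested were at least 2-fold higher. In the NK gate it gave 5 of 26 on HFD and 8 of 37 on ND, where 5.24% and 6.72% of all genes were higher. The difference between cDC1s and these gates was not tested. A median of the same sign for ND cDC1s was known from earlier work on these libraries and is not independent here.

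Irf7, a transcription factor that drives further type I interferon production, had the highest ratio of the list on ND among single-lineage members. It lies on chromosome 7 (141262706 to 141266481, minus strand, GRCm38). Over all members it was at 167 CPM in HFD labelled DTR, 20.4 CPM in HFD labelled WT, 345 CPM in ND labelled DTR and 21.0 CPM in ND labelled WT. Both libraries labelled DTR stood above both labelled WT, with log2 ratios of 3.03 (2.60 to 3.48) on HFD and 4.03 (3.67 to 4.42) on ND. Without second-lineage members the ratios were 2.92 (2.46 to 3.41) and 3.65 (3.23 to 4.09). After thinning to 3000 UMIs, Irf7 was found in 27.1% of single-lineage members in HFD labelled DTR, 3.86% in HFD labelled WT, 32.5% in ND labelled DTR and 2.57% in ND labelled WT. Before thinning, the shares were 38.8% in HFD labelled DTR, 12.9% in HFD labelled WT, 59.3% in ND labelled DTR and 10.5% in ND labelled WT. NK cells, which also express the gene, had 89.3 CPM in HFD labelled DTR, 82.1 CPM in HFD labelled WT, 110 CPM in ND labelled DTR and 68.5 CPM in ND labelled WT.

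Antiviral effectors went with it. Ifitm3, a membrane protein that blocks virus entry, was at 1605 CPM in HFD labelled DTR and 246 CPM in HFD labelled WT among single-lineage members, with a log2 ratio of 2.70 (2.56 to 2.84). On ND it was at 1644 CPM in ND labelled DTR and 523 CPM in ND labelled WT, a log2 ratio of 1.65 (1.55 to 1.76). Ifi27l2a, an interferon-induced gene, was at 374 CPM in HFD labelled DTR and 42.5 CPM in HFD labelled WT and at 309.7 CPM in ND labelled DTR and 63.1 CPM in ND labelled WT. Zbp1, a sensor of Z-form nucleic acid, was at 68.6 CPM in HFD labelled DTR and 15.0 CPM in HFD labelled WT and at 107 CPM in ND labelled DTR and 19.3 CPM in ND labelled WT. In each of these 3 genes both libraries labelled DTR lay above both labelled WT. Isg15, a ubiquitin-like modifier, was lower in every library once second-lineage members were left out. Over all members it was at 157 CPM in HFD labelled DTR, 25.7 CPM in HFD labelled WT, 287 CPM in ND labelled DTR and 25.5 CPM in ND labelled WT, and among single-lineage members at 73.4 CPM in HFD labelled DTR, 15.7 CPM in HFD labelled WT, 105 CPM in ND labelled DTR and 17.3 CPM in ND labelled WT. Its log2 ratio went to 2.22 on HFD and 2.60 on ND, against 2.61 and 3.49 over all members. In all, 11 genes were at least 2-fold higher in both diets among single-lineage members, which were Bst2, Eif2ak2, Ifi27l2a, Ifi35, Ifitm3, Irf7, Isg15, Lgals3bp, Phf11d, Slfn5 and Zbp1. Of 25 genes measured in both diets and with UMIs in every library, 20 had a ratio above 0 in both. The median over all genes was itself above 0, at 0.05 on HFD and 0.10 on ND. At least 2-fold higher were 2.42% of all genes on HFD and 2.53% on ND. The share of all genes that met either condition in both diets was not computed.

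**Figure D3:**
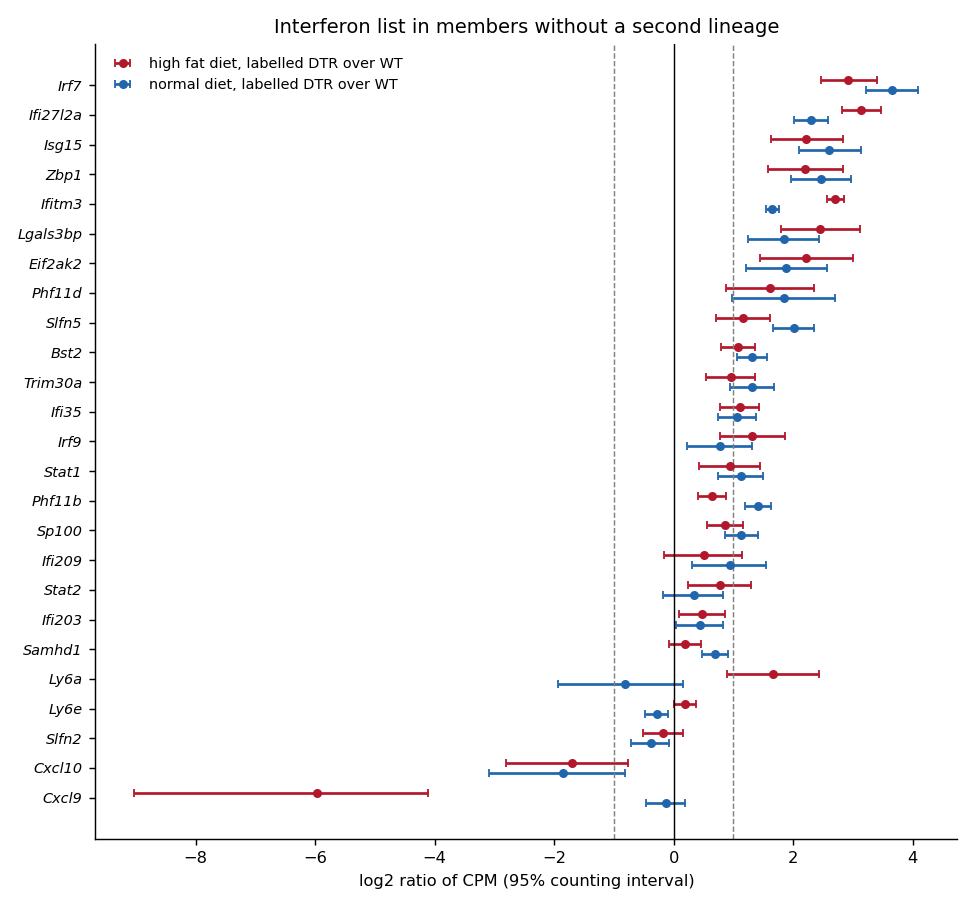
Log2 ratio of CPM, labelled DTR over labelled WT, among single-lineage members, with HFD in red and ND in blue. Drawn are the 25 interferon genes measured in both diets and with UMIs in every library. Bars are 95% counting intervals and dashed lines mark 2-fold. Irf7 stands at the top with 2.92 on HFD and 3.65 on ND, and Cxcl9 at the bottom with -5.98 on HFD.

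The promoters of 2 of these genes are shown because their spacing of repeated GAAA letters is the pattern that interferon-activated factors are known to bind. Each line gives the 250 bases before the RefSeq start of the gene (GRCm38.p6), 5′ to 3′ on the strand of the gene. Capitals mark the motif GAAANNGAAA, searched on both strands, overlapping matches joined. Isg15 lies on the minus strand, with its window at chr4:156200819-156201068 and 3 overlapping matches. Bst2, which encodes tetherin, a membrane protein that holds budding virus on the cell, lies on the minus strand with its window at chr8:71537473-71537722 and 2 overlapping matches.
Isg15 promoter: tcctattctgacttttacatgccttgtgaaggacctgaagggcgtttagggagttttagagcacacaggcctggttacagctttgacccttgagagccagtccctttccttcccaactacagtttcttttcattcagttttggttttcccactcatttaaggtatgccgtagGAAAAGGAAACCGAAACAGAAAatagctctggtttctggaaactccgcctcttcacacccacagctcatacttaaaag
Bst2 promoter: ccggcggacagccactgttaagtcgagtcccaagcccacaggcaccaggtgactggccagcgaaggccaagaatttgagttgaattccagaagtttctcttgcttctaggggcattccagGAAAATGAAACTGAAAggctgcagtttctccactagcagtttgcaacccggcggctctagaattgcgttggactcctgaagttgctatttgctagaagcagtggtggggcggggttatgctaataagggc
In windows reaching from 250 bases before to 50 bases after the start, the motif occurred in 28 of the 51 interferon-list genes with a RefSeq window (54.9%) and in 1079 of all 27025 genes (3.99%). Of the 11 genes higher in both diets, 9 had a window and 5 of those held the motif, namely Bst2, Eif2ak2, Ifitm3, Isg15 and Slfn5. A match describes the letters and is not evidence of binding in these cells.

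The interferon-induced chemokine genes Cxcl9 and Cxcl10 did not follow Irf7. Cxcl9, which draws CXCR3-bearing T and NK cells, had 4 UMIs (3.56 CPM) in HFD labelled DTR, 401 UMIs (141 CPM) in HFD labelled WT, 131 UMIs (118 CPM) in ND labelled DTR and 475 UMIs (141 CPM) in ND labelled WT. HFD labelled DTR alone was low, with a log2 ratio of -5.31 (-7.20 to -3.95) to HFD labelled WT. The gene was concentrated, as 84% of the UMIs in HFD labelled WT came from 5 cells, and it was found in 3 of 139 members in HFD labelled DTR, 27 of 223 in HFD labelled WT, 16 of 98 in ND labelled DTR and 46 of 295 in ND labelled WT. Thinned to 3000 UMIs, the shares were 0.735% in HFD labelled DTR, 7.73% in HFD labelled WT, 6.19% in ND labelled DTR and 9.93% in ND labelled WT. NK cells, unthinned with median depths of 3206 to 4473 UMIs, held a Cxcl9 UMI in 1.5% of cells in HFD labelled DTR, 1% in HFD labelled WT, 0.816% in ND labelled DTR and 3.47% in ND labelled WT. Unthinned, members held one in 2.16% (0.447 to 6.18) of cells in HFD labelled DTR, within the counting interval of the NK cells there (0.183 to 5.33). Cxcl10 moved with the second-lineage members. Over all members it was at 151 CPM in ND labelled DTR and 40.9 CPM in ND labelled WT, whereas among single-lineage members it was at 10.2 CPM in ND labelled DTR and 36.6 CPM in ND labelled WT, so that the log2 ratio of 1.88 turned to -1.85.

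Plac8, a small cysteine-rich protein known from monocytes and plasmacytoid cells, was higher in both libraries labelled DTR. It was at 384 CPM in HFD labelled DTR, 44.9 CPM in HFD labelled WT, 510.2 CPM in ND labelled DTR and 77.8 CPM in ND labelled WT among single-lineage members. The log2 ratios were 3.1 (2.78 to 3.42) on HFD and 2.71 (2.48 to 2.95) on ND. The difference was spread over many cells, as Plac8 was found after thinning in 54.2% of single-lineage members in HFD labelled DTR, 7.25% in HFD labelled WT, 52.5% in ND labelled DTR and 15.4% in ND labelled WT. Before thinning the shares were 66.1% in HFD labelled DTR, 20.5% in HFD labelled WT, 66.7% in ND labelled DTR and 25.5% in ND labelled WT. In the type 2 dendritic gate its log2 ratios were 2.24 on HFD and 2.64 on ND.

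Because Plac8 and the interferon genes are also high in monocytes, the other monocyte and macrophage markers are given beside them. The 6 monocyte markers (Ly6c2, Plac8, Chil3, Ccr2, Fcgr4, Ace) summed to 609 CPM in HFD labelled DTR, 196 CPM in HFD labelled WT, 703 CPM in ND labelled DTR and 193 CPM in ND labelled WT among single-lineage members, of which Plac8 and Ccr2 made up nearly all. Ccr2 itself, the receptor for Ccl2 that cDC1 precursors also carry, was at 203 CPM in HFD labelled DTR, 143 CPM in HFD labelled WT, 185 CPM in ND labelled DTR and 104 CPM in ND labelled WT. Ly6c2 was at 8.43 CPM in HFD labelled DTR, 0.394 CPM in HFD labelled WT, 2.54 CPM in ND labelled DTR and 5.23 CPM in ND labelled WT. Chil3 was at 1.20 CPM in HFD labelled DTR, 0 CPM in HFD labelled WT, 0 CPM in ND labelled DTR and 0 CPM in ND labelled WT. The 7 macrophage markers summed to 330 CPM in HFD labelled DTR, 273 CPM in HFD labelled WT, 176 CPM in ND labelled DTR and 196 CPM in ND labelled WT, with Fcgr1 at 0 in every library but HFD labelled DTR (6.02 CPM). The part of other cells' RNA in the interferon and Plac8 differences was not tested beyond these values and the removal of second-lineage members.

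Lgals9 and Tmem173 were higher alongside. Lgals9, which encodes galectin-9, a ligand of checkpoint receptors on T cells, was at 38.5 CPM in HFD labelled DTR, 9.45 CPM in HFD labelled WT, 50.8 CPM in ND labelled DTR and 11.8 CPM in ND labelled WT among single-lineage members, with log2 ratios of 2.03 (1.22 to 2.85) on HFD and 2.11 (1.42 to 2.80) on ND. Tmem173, which encodes the DNA-sensing adaptor STING, was at 85.5 CPM in HFD labelled DTR, 40.9 CPM in HFD labelled WT, 77.4 CPM in ND labelled DTR and 20.9 CPM in ND labelled WT, with ratios of 1.06 (0.61 to 1.51) and 1.89 (1.36 to 2.42). Among single-lineage members Lgals9 was the highest gene of the checkpoint list and Tmem173 of the nucleic acid sensing list in both diets. Of the genes of these 2 lists, 1 of 11 and 1 of 14 were at least 2-fold higher on HFD, and 1 of 11 and 1 of 13 on ND. Over all genes of single-lineage members, 2.42% were higher on HFD and 2.53% on ND.

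Timd4 was lower in cDC1s of the libraries labelled DTR, in many cells rather than a few. It encodes TIM-4, a receptor for phosphatidylserine on dying cells, known from resident macrophages and from some dendritic cells, and lies on chromosome 11 (46810800 to 46844332, plus strand, GRCm38). It had 27 UMIs (24.0 CPM) in HFD labelled DTR, 540 UMIs (190.3 CPM) in HFD labelled WT, 82 UMIs (74.0 CPM) in ND labelled DTR and 753 UMIs (223 CPM) in ND labelled WT. HFD labelled DTR was lowest, ND labelled DTR was intermediate and the libraries labelled WT were high on both diets. The log2 ratios were -2.99 (-3.60 to -2.43) on HFD and -1.59 (-1.94 to -1.26) on ND, and -2.77 (-3.41 to -2.19) and -1.35 (-1.72 to -1.0) among single-lineage members. After thinning, 8.82% of members in HFD labelled DTR, 30.9% in HFD labelled WT, 16.5% in ND labelled DTR and 33.6% in ND labelled WT had a Timd4 UMI. Before thinning the shares were 13.7% in HFD labelled DTR, 56.1% in HFD labelled WT, 29.6% in ND labelled DTR and 55.3% in ND labelled WT. NK cells, with median depths of 3206 to 4473 UMIs, held one in 0 of 133 cells (0% to 2.74%) in HFD labelled DTR, 2 of 200 in HFD labelled WT, 0 of 245 (0% to 1.49%) in ND labelled DTR and 1 of 144 in ND labelled WT.

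Most other genes of the dead-cell uptake list did not differ by 2-fold, though some were lower as Timd4 was, more of them on ND than on HFD. Of 14 genes measured on HFD among single-lineage members, 1 was at least 2-fold higher (Axl, 1.47) and 2 lower, with a median log2 ratio of -0.08, where 2.42% of all genes were higher and 2.33% lower. On ND 1 of 13 was higher and 4 lower, with a median of -0.14, where 2.53% of all genes were higher and 2.38% lower. Dnase1l3, a secreted nuclease that digests chromatin of dead cells, was the other gene low in both, at 7.11 CPM in HFD labelled DTR, 34.2 CPM in HFD labelled WT, 9.93 CPM in ND labelled DTR and 32.9 CPM in ND labelled WT over all members. Clec9a, which belongs to the rule, is given only as a level, at 212 CPM in HFD labelled DTR, 192 CPM in HFD labelled WT, 234 CPM in ND labelled DTR and 236 CPM in ND labelled WT.

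**Figure D4:**
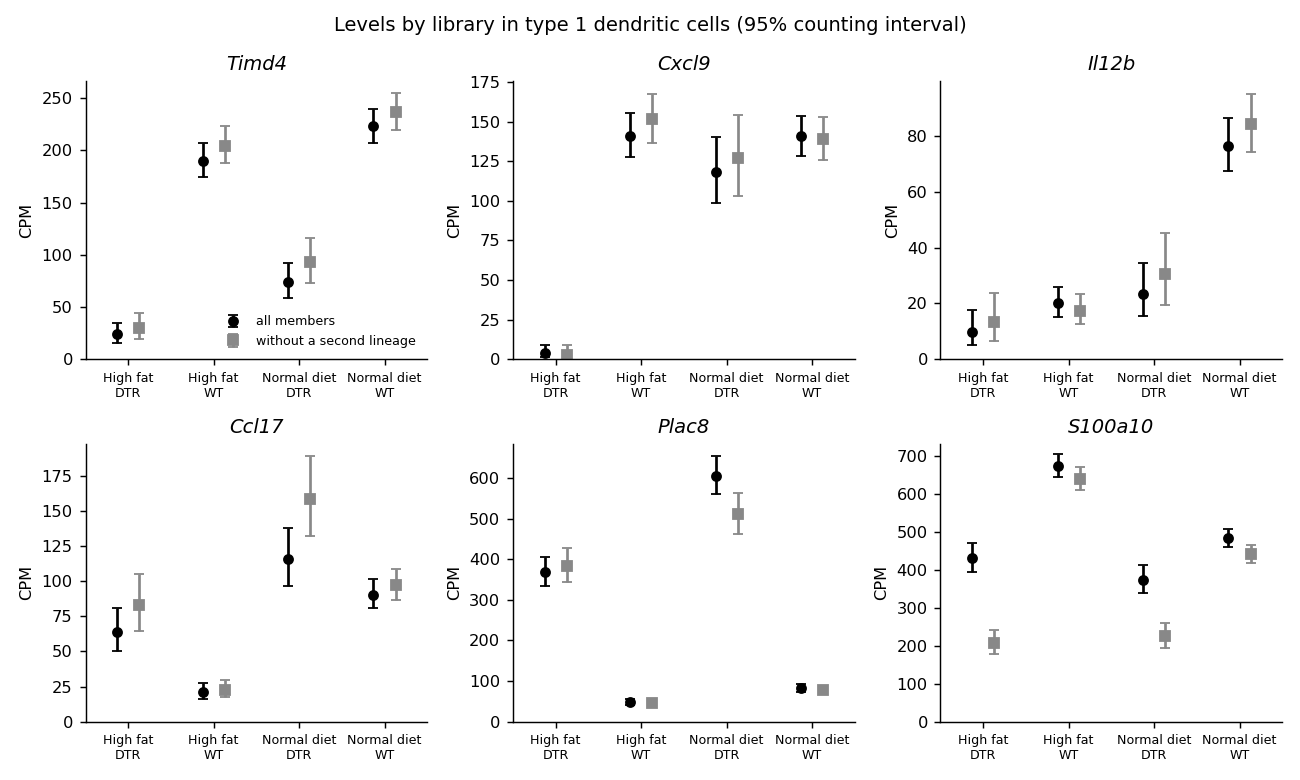
CPM of 6 genes in each library, for all members (circles) and single-lineage members (squares), with 95% Poisson intervals. Timd4, Cxcl9 and Il12b are lowest in HFD labelled DTR, Plac8 is high in both libraries labelled DTR, and S100a10 is highest in HFD labelled WT.

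The enzymes of cholesterol synthesis were highest in cDC1s of HFD labelled DTR. The pathway runs from acetyl-CoA through mevalonate to sterols and is switched on by SREBP2 when cells sense little sterol. The 20 enzymes of the textbook pathway were summed as a whole after Cyp51 and Fdps had been seen among the named genes, so the sum is a description. Together they came to 1227 CPM (1163 to 1293) in HFD labelled DTR, 274 CPM (255 to 294) in HFD labelled WT, 460 CPM (421 to 502) in ND labelled DTR and 392 CPM (371 to 414) in ND labelled WT. Each of the 20 had its highest CPM in HFD labelled DTR. Among single-lineage members the sums were 1092 CPM in HFD labelled DTR, 276 CPM in HFD labelled WT, 386 CPM in ND labelled DTR and 390 CPM in ND labelled WT.

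HFD labelled DTR was highest at early and late steps of the pathway, while the order of the other libraries varied between enzymes. Hmgcs1, which makes HMG-CoA, was at 104 CPM in HFD labelled DTR, 14.1 CPM in HFD labelled WT, 27.1 CPM in ND labelled DTR and 24.3 CPM in ND labelled WT. It was highest in HFD labelled DTR and lowest in HFD labelled WT. Fdps, which makes farnesyl diphosphate, was at 230.2 CPM in HFD labelled DTR, 22.2 CPM in HFD labelled WT, 94.8 CPM in ND labelled DTR and 51.6 CPM in ND labelled WT, and Cyp51, the lanosterol demethylase, at 152 CPM in HFD labelled DTR, 11.6 CPM in HFD labelled WT, 34.3 CPM in ND labelled DTR and 35.3 CPM in ND labelled WT. The log2 ratios of HFD labelled DTR to HFD labelled WT were 3.37 (2.97 to 3.8) for Fdps and 3.71 (3.16 to 4.29) for Cyp51. On ND the ratios of labelled DTR to labelled WT were 0.88 (0.51 to 1.24) and -0.04 (-0.61 to 0.50). Of the 10 enzymes with enough UMIs on HFD 9 were at least 2-fold higher in HFD labelled DTR (median 2.54), while on ND 0 of 9 were higher or lower (median -0.04). Single-lineage members gave 7 of 8 on HFD (median 2.00), and 0 of 9 higher and 1 lower on ND (median -0.45). Of all genes measured over all members, 7.81% were higher on HFD, and 5.39% were higher and 1.93% lower on ND. Among single-lineage members 2.42% were higher on HFD, and 2.53% were higher and 2.38% lower on ND.

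**Figure D5:**
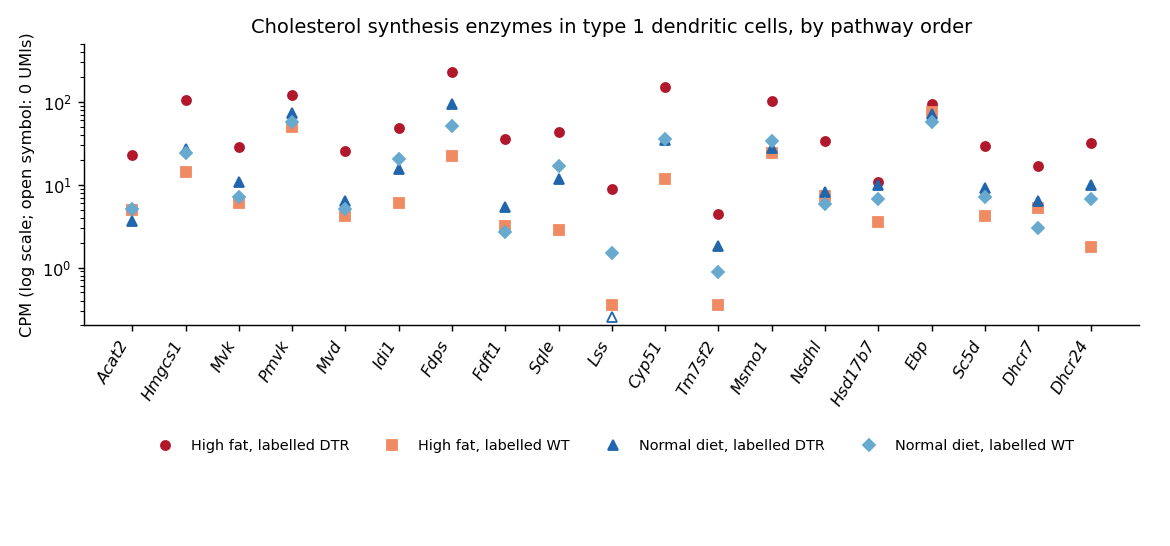
CPM (log scale) of 19 cholesterol synthesis enzymes in all members, in pathway order from left to right, by library. The red circles of HFD labelled DTR are the highest point for each of the 19, and an open symbol marks 0 UMIs.

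The pattern was not seen in cDC1s alone. In the type 2 dendritic gate the 20 enzymes summed to 1427 CPM in HFD labelled DTR, 302 CPM in HFD labelled WT, 835 CPM in ND labelled DTR and 578 CPM in ND labelled WT, and in the NK gate to 746 CPM in HFD labelled DTR, 396 CPM in HFD labelled WT, 405 CPM in ND labelled DTR and 354 CPM in ND labelled WT. HFD labelled DTR was highest in all 3 gates. The promoter of Hmgcs1 (chr13:119690101-119690350, plus strand, RefSeq, GRCm38.p6) is shown because it held the only match among 16 genes, the enzymes considered here that had a window plus Insig1, to TCACNCCAC, a sterol regulatory element pattern in capitals, searched on both strands.
Hmgcs1 promoter: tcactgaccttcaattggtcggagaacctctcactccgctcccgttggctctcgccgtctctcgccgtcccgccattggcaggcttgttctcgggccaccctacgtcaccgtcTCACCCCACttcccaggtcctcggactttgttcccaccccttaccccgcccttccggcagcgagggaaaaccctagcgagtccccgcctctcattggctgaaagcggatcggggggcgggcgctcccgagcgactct
The same 9 letters occurred in 388 of 27025 genes' windows (1.44%). Genes without the match can carry other forms of the element.

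A few genes of adhesion and the cytoskeleton were lower in HFD labelled DTR among single-lineage members. Of 39 measured genes 5 were at least 2-fold lower and 1 higher, with a median log2 ratio of -0.21, where 2.33% of all genes were lower and 2.42% higher (median 0.05). S100a10, the partner of annexin A2, was at 207 CPM in HFD labelled DTR, 639 CPM in HFD labelled WT, 225 CPM in ND labelled DTR and 439.7 CPM in ND labelled WT, with ratios of -1.63 (-1.86 to -1.40) on HFD and -0.97 (-1.20 to -0.74) on ND. Over all members the ratios were closer to 0, at -0.65 and -0.37. Vim, which encodes the intermediate filament vimentin, was at 1026 CPM in HFD labelled DTR and 2303 CPM in HFD labelled WT, a ratio of -1.17 (-1.27 to -1.06). On ND it was at 1453 CPM in ND labelled DTR and 1634 CPM in ND labelled WT. Itga1, the collagen-binding integrin alpha chain, was at 33.7 CPM in HFD labelled DTR, 70.5 CPM in HFD labelled WT, 33.0 CPM in ND labelled DTR and 78.8 CPM in ND labelled WT, below 50 CPM in both libraries labelled DTR. On ND the adhesion list had 0 of 38 genes higher and 1 lower, where 2.53% of all genes were higher and 2.38% lower. Its median there was 0.01, or -0.14 over all members once the libraries were scaled by TMM.

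Among the other genes named on HFD in single-lineage members, Trf, which encodes the iron carrier transferrin, was at 109.5 CPM in HFD labelled DTR and 359 CPM in HFD labelled WT, a log2 ratio of -1.71 (-2.04 to -1.40), and on ND at 138 CPM in ND labelled DTR and 331 CPM in ND labelled WT, a log2 ratio of -1.26 (-1.56 to -0.97). Tnip3, an inhibitor of NF-kappa B signalling, was at 57.8 CPM in HFD labelled DTR and 226 CPM in HFD labelled WT and at 87.6 CPM in ND labelled DTR and 173 CPM in ND labelled WT. Both were lower in the libraries labelled DTR. Acp5 (4.80) and Ctsk (4.46), known from osteoclasts and macrophages, were higher in HFD labelled DTR through very few cells, with 95% and 100% of their UMIs in 5 cells. Col1a2 (2.54), a collagen chain, was spread over more cells. Cenpv was at 4.82 CPM in HFD labelled DTR and 49.6 CPM in HFD labelled WT, and Retnla, Serpina3g, Pdlim1 and Igkc were the remaining lower genes. Retnla and Serpina3g were concentrated, with 84% and 93% of their UMIs in 5 cells.

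On ND the named higher genes of single-lineage members were mostly interferon genes. Beside Irf7, Isg15, Ifi27l2a, Zbp1, Slfn5 and Ifitm3 they included Plac8, Wfdc17 (2.34), Ifi207 (2.20) and the chemokine gene Ccl5 (2.56), which had 96% of its UMIs in 5 cells. The lower genes included Mir155hg, the host transcript of microRNA 155, at 1.27 CPM in ND labelled DTR and 23.9 CPM in ND labelled WT, where 1 UMI stood against 73. Id1, an inhibitor of helix-loop-helix factors, also had 1 UMI in ND labelled DTR, against 70 in ND labelled WT. Treml4, a receptor of splenic CD8 dendritic cells that binds dead cells, was at 3.81 CPM in ND labelled DTR and 28.1 CPM in ND labelled WT, a log2 ratio of -2.88 (-5.19 to -1.29), and on HFD at 9.63 CPM in HFD labelled DTR and 26.4 CPM in HFD labelled WT. Marcksl1, an actin-binding protein of mature dendritic cells, was at 44.4 CPM in ND labelled DTR and 137 CPM in ND labelled WT, a log2 ratio of -1.63 (-2.17 to -1.13). The remaining lower genes were Fabp4, Sdc4, Arl5c, Cldn5, Hist1h2ap and Lyz1.

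Few antigen presentation genes differed by 2-fold in either diet. Of the 27 genes of cross-presentation and MHC class I measured over all members, 0 were at least 2-fold higher or lower on HFD (median 0.16) and 1 was higher on ND (Cybb, 2.62), where the median was 0.41 beside 0.15 over all genes. On ND 17 of the 27 had an interval wholly above 0 and 0 one wholly below. H2-K1, a classical class I heavy chain, was at 1472 CPM in HFD labelled DTR, 992 CPM in HFD labelled WT, 1474 CPM in ND labelled DTR and 1235 CPM in ND labelled WT. In the class II list over all members 1 of 12 genes was higher in each diet, Lgmn, a lysosomal protease, at 1.65 on HFD and 3.43 on ND. These Cybb and Lgmn ratios include second-lineage members, and the ratios without those members are not given here. The class II median on HFD was 0.05, or -0.13 with TMM scaling, and on ND -0.12, or -0.29 with TMM scaling. Among single-lineage members the class II median on ND was 0.074. Over all members, 7.81% of all genes were higher and 1.56% lower on HFD, and 5.39% higher and 1.93% lower on ND. H2-Aa was at 11178 CPM in HFD labelled DTR, 12556 CPM in HFD labelled WT, 10877 CPM in ND labelled DTR and 11788 CPM in ND labelled WT, and Cd74, the invariant chain, at 24318 CPM in HFD labelled DTR, 29622 CPM in HFD labelled WT, 25414 CPM in ND labelled DTR and 28649.8 CPM in ND labelled WT. Co-stimulation and maturation genes had 1 of 22 higher and 1 lower on HFD (median -0.12) and 1 of 23 higher and 0 lower on ND (median -0.42). Cd86, a ligand of CD28, was at 181 CPM in HFD labelled DTR, 219 CPM in HFD labelled WT, 221 CPM in ND labelled DTR and 304 CPM in ND labelled WT. Il1b, an inflammatory cytokine, was high in every library, at 1513 CPM in HFD labelled DTR, 1549 CPM in HFD labelled WT, 1889 CPM in ND labelled DTR and 1677 CPM in ND labelled WT. Of the 27 cDC1 identity genes measured, 2 were higher and 1 lower on HFD and 0 differed on ND.

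Some immediate early genes were higher in HFD labelled DTR. Over all members 10 of 29 were at least 2-fold higher than in HFD labelled WT and 0 lower, with a median of 0.67, where 7.81% of all genes were higher. On ND 0 of 30 differed (median 0.03), where 5.39% of all genes were higher and 1.93% lower. Among single-lineage members 4 of 27 were higher on HFD (median 0.41), where 2.42% of all genes were higher, and the other 23 were not called. Fos, a subunit of the AP-1 factor, was at 1086 CPM in HFD labelled DTR, 425 CPM in HFD labelled WT, 461 CPM in ND labelled DTR and 333 CPM in ND labelled WT among these, and its partner Jun at 372 CPM in HFD labelled DTR, 146 CPM in HFD labelled WT, 137 CPM in ND labelled DTR and 92.2 CPM in ND labelled WT. Heat shock genes had 0 of 11 genes differing on HFD among single-lineage members, and 1 of 11 higher on ND (Hspa1a, 1.91). Of all genes in these cells, 2.42% were higher and 2.33% lower on HFD, and 2.53% were higher on ND.

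The diet comparison in the libraries labelled WT gave the fewest differences among single-lineage members relative to genes tested. Over all members 1.53% of 6818 genes (104) were at least 2-fold higher in HFD labelled WT than in ND labelled WT and 0.748% (51) lower, or 80 and 60 genes with TMM scaling, and among single-lineage members 1.02% and 0.63% of 6353. Il12b, the shared subunit of the cytokines IL-12 and IL-23, was at 9.78 CPM in HFD labelled DTR, 20.1 CPM in HFD labelled WT, 23.5 CPM in ND labelled DTR and 76.5 CPM in ND labelled WT over all members, with a log2 ratio of -1.93 (-2.37 to -1.51) between HFD labelled WT and ND labelled WT. ND labelled WT stood above the other libraries, through few cells, as 76% of its UMIs came from 5 members. Ccl17, a chemokine for CCR4-bearing T cells, was at 83.1 CPM in HFD labelled DTR, 22.8 CPM in HFD labelled WT, 159 CPM in ND labelled DTR and 97.1 CPM in ND labelled WT among single-lineage members, lowest in HFD labelled WT, with a diet ratio of -2.09 (-2.52 to -1.68). Neither gene had a UMI in NK cells of any library, which bounds the share of cells with a UMI at 2.74% of the 133 NK cells of HFD labelled DTR, the smallest set, and not the share that express the gene.

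Cholesterol enzymes were lower in HFD labelled WT than in ND labelled WT. Over all members 0 of 9 measured were at least 2-fold higher and 4 lower (median -0.79). Of all genes measured, 1.53% were higher and 0.748% lower. Cyp51 had a log2 ratio of -1.60 (-2.20 to -1.03), Idi1 of -1.77 (-2.63 to -0.99) and Sqle, the squalene epoxidase, of -2.56 (-3.84 to -1.48). Their levels were below those of ND labelled WT in each case, with Sqle at 2.82 CPM in HFD labelled WT and 16.6 CPM in ND labelled WT. In the type 2 dendritic gate 6 of 12 enzymes were lower (median -0.97), where 1.85% of all genes tested were lower. Of the interferon list 1 of 35 genes was higher (Ifi47, 1.29) and 3 lower, among them the GTPase gene Iigp1 at 5.64 CPM in HFD labelled WT and 33.5 CPM in ND labelled WT. Ifitm3 was at 286 CPM in HFD labelled WT and 556 CPM in ND labelled WT. The higher genes named among single-lineage members, Retnla, Cxcl2, Lpl, Capg, Fn1, Col3a1, Ctsd, Ccl2, Ccl9 and Sparc, are known from macrophages and fibroblasts, and 7 of these 10 had over 50% of their UMIs in 5 cells. AY036118 and Fabp4 were among the lower genes.

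Between HFD labelled DTR and ND labelled DTR, 5.98% of 4632 genes were at least 2-fold higher and 1.49% lower over all members, and 2.01% and 0.679% of 3388 among single-lineage members. Cholesterol enzymes were higher on HFD, with 7 of 9 measured over all members (median 1.64) and 5 of 7 among single-lineage members (median 1.54). Cyp51 was at 137 CPM in HFD labelled DTR and 26.7 CPM in ND labelled DTR in these cells, a log2 ratio of 2.36 (1.68 to 3.11). Of the immediate early list, 13 of 29 genes were higher over all members (median 0.88) and 6 of 27 among single-lineage members (median 0.31), with 0 lower in either. Cxcl2, a neutrophil chemokine, was at 99.9 CPM in HFD labelled DTR and 15.2 CPM in ND labelled DTR and Ccl4, a chemokine that draws immune cells, at 388 CPM in HFD labelled DTR and 104 CPM in ND labelled DTR. Timd4 was lower on HFD at -1.62 (-2.34 to -0.95), Cxcl9 at -5.72 and Ccl5 at -2.80. The last 2 rested on few cells of ND labelled DTR. Single cells there held 56 and 33 of the Cxcl9 UMIs, and most Ccl5 UMIs lay in 5 cells, as given above. Of the interferon list 0 of 23 were higher and 2 lower among single-lineage members (median -0.21). The named higher genes also held Acp5, Ctsk, Ccl9, Fn1, Col1a1, Col1a2 and Col3a1, and the lower ones Ifitm6, AA467197, Hspa1a, Pptc7, Neat1, Slc8b1 and Qpct.

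Dividing cells were found among cDC1s of every library and were fewest in ND labelled DTR. A member was counted as cycling with at least 3 of 10 cell cycle genes detected. Single-lineage members that met this were 18 (14.9%, 9.06 to 22.5) in HFD labelled DTR, 34 (16.2%, 11.5 to 21.9) in HFD labelled WT, 4 (4.94%, 1.36 to 12.2) in ND labelled DTR and 27 (9.82%, 6.57 to 14) in ND labelled WT. Over all members the shares were 14.4% in HFD labelled DTR, 16.6% in HFD labelled WT, 5.10% in ND labelled DTR and 10.2% in ND labelled WT. After thinning to 3000 UMIs they were 11% in HFD labelled DTR, 10.9% in HFD labelled WT, 2.06% in ND labelled DTR and 7.19% in ND labelled WT. Top2a, a topoisomerase of dividing cells, was at 76.4 CPM in HFD labelled DTR, 87.0 CPM in HFD labelled WT, 18.1 CPM in ND labelled DTR and 59.0 CPM in ND labelled WT. Of the cell cycle list 0 of 38 genes were at least 2-fold higher and 9 lower in ND labelled DTR against ND labelled WT (median -0.24), where 1.93% of all genes were lower. In HFD labelled WT against ND labelled WT 5 of 47 were higher and 0 lower (median 0.58), where 1.53% of all genes were higher. Both list results are over all members and depended on the processing. With the rule applied after thinning, the median was 0.19 in the first comparison and 0.0098 in the second. Without cycling members it was 0.48 and 0.14. Over the single-lineage members of all libraries, cycling cells had 106 CPM of Timd4 and other members 202 CPM, and 123 CPM of Fdps against 53.3 CPM.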

How the data were processed

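The submitters' processing notes name Cell Ranger 3.1.0 and the mm10 build. The values are raw UMI counts in 1 matrix deposited by the authors, with 31053 genes and 22703 barcodes per the file headers, covering 4 libraries. Barcode suffixes were read as positions in the authors' aggregation list, a mapping that rests on that list alone. The 8 records of a source name differ in index and lane and were taken as runs of 1 library. UMIs per library were 64766718 in HFD labelled DTR, 49142626 in HFD labelled WT, 33390225 in ND labelled DTR and 37655128 in ND labelled WT. The sources used here do not say whether depth was equalised between libraries.

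From these counts, member UMIs were summed per library and scaled to CPM. Log2 ratios carry conditional exact binomial 95% intervals, and a gene at 0 was set to 3 UMIs per library. Genes needed 50 UMIs over both libraries, and called means at least 2-fold. No p-value was computed. A few genes that counted toward totals and lists are not reported here. Thinning drew 3000 UMIs per cell. Doublets were called per library with Scrublet (scanpy 1.11.5), which marked 1.37%, 1.29%, 0.69% and 1.31% of barcodes in HFD labelled DTR, HFD labelled WT, ND labelled DTR and ND labelled WT. These were kept in the reported values and left out in an alternative. The named genes were the 10 higher and 10 lower with the interval bound nearest 0 farthest from it, without rule, mitochondrial, ribosomal and predicted genes, plus the extremes of the gene lists and genes whose role is described. Genes named outside that rule were chosen after their values were seen. The cells, gene lists, named genes and tests were chosen with earlier results of these data known, and the removal of second-lineage members and the count without Itgae were chosen after seeing the data. Counting was tested on simulated data, where 98.0% to 100% of 4-fold changes and 43.0% to 53.0% of 2-fold changes, which lie at the threshold, were called per comparison. The simulated UMIs were independent Poisson draws, without variation between cells. Python 3.11.15, numpy 2.4.6, scipy 1.17.1, pandas 2.3.3, R 4.3.3, edgeR 4.0.16 (TMM factors) and DESeq2 1.42.0 (median-of-ratios factors) were used. Gene positions are from GENCODE (GRCm38) and promoters from RefSeq (GRCm38.p6).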

Additional observations from a re-analysis of the deposited data

Results flagged for a closer look

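In 2 cases among single-lineage members a gene moved at least 2-fold one way in 1 pair of libraries and at least 2-fold the other way in the matching pair. Only 90 genes considered for the text were searched, some of them chosen after their values were seen, and not all genes measured. A gene needed 50 UMIs in each pair. The differences between the pairs were not tested, since each group is 1 library. Cyp51, the lanosterol demethylase, had HFD to ND ratios of 2.36 labelled DTR and -1.62 labelled WT. Fdps, the farnesyl diphosphate synthase, had ratios of 1.75 labelled DTR and -1.11 labelled WT.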

How the results depend on the processing

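Of 17 alternatives, 11 bore on the share. Of its 44 values 38 stayed within the counting interval of the reported value, as did 969 of 1006 list medians. Where that interval held both signs, a value that changed sign inside it still counted as kept. Of 56 values each, 19 counts of higher genes and 14 counts of lower genes moved by over 1.5 times. Of 4534 values of single genes 685 moved and 7 reversed. The share of the 3 dendritic gates gave log2 ratios of 0.30 (HFD labelled DTR over HFD labelled WT), -0.0011 (ND labelled DTR over ND labelled WT), 0.21 (HFD labelled WT over ND labelled WT) and 0.51 (HFD labelled DTR over ND labelled DTR), 2 of them reversed. These are called HFD label, ND label, WT diet and DTR diet below, and 4 values stand in that order. With the rule applied after thinning, the share ratio was 0.11 in HFD label, reversed, and 0.33 in DTR diet. Genes higher were then 163, 126, 53 and 97, genes lower 52 in HFD label and 31 in DTR diet, and list medians were 0.45 (HFD label), 0.19 (ND label) and 0.0098 (WT diet) for the cell cycle, and in ND label 1.16 for interferon, 0.15 for heat shock, 0.068 for oxidative stress and -0.33 for checkpoint genes, and in DTR diet 0.37 for cytokines, 0.45 for oxidative stress and 0.26 for checkpoint genes. Reversed there were Il12b (0.28) and Mki67 (0.24) in ND label and Fabp4 (0.11) in DTR diet. Without C1q UMIs genes higher were 263 in HFD label, 48 in WT diet and 114 in DTR diet, and the immediate early median in WT diet was -0.030. A minimum of 20 UMIs gave 1036, 666, 307 and 706 genes higher and 236, 327, 178 and 209 lower, and one of 200 UMIs gave 112, 69, 29 and 56 higher and 25, 24, 11 and 13 lower. Without second-lineage members 126, 134, 65 and 68 genes were higher, and 23 lower in DTR diet. Medians were then 0.41 for immediate early genes in HFD label, in ND label 0.074 for MHC class II, -0.085 for cytokines, 1.13 for interferon and -0.0027 for oxidative stress, and in DTR diet 0.090 for MHC class II, 0.37 for cytokines, 0.31 for immediate early and -0.32 for heat shock genes. Cxcl10 (-1.85) and S100a4 (-0.52) reversed in ND label. TMM scaling moved the log2 ratios by -0.18, -0.17, -0.08 and -0.09, and gave 155 lower genes in HFD label, with medians of -0.13 for MHC class II, 0.49 for immediate early and -0.41 for adhesion genes, and -0.29 for MHC class II and -0.14 for adhesion in ND label. Median-of-ratios scaling gave 154 lower genes and medians of -0.13, 0.49, -0.40, -0.28 and -0.14 for the same lists. With each cell scaled alike the immediate early median was 0.50 in HFD label and that of MHC class II 0.10 in DTR diet. Without cycling members 75 genes were lower in ND label, and cell cycle medians were 0.48 in ND label, 0.14 in WT diet and -0.12 in DTR diet. With at least 4 markers the interferon median was 1.07 in ND label and the cytokine median 0.27 in DTR diet. Without Scrublet calls Fabp4 reversed to 0.33 in WT diet and 0.10 in DTR diet. The cause of these moves was not tested, beyond the cells or genes each alternative leaves out by construction.

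No paired analysis was possible because the replicate numbers of the labels are index and lane runs of 1 library, and leaving out a replicate was not possible with 1 library a group. Depth limits these results: 0 UMIs in the smaller libraries of HFD labelled DTR and ND labelled DTR do not show absence. Differences between labels, diets, mice, sort and library preparation cannot be told apart, and neither can a difference within cDC1s and one in which cells met the rule.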
